A study of Homo sapiens with 24 samples.

Results

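The 47 genes described here encode the kinases, cyclins, kinetochore proteins, motors and cytokinesis factors of mitosis. They were listed by name among 19775 genes with a single-gene probe set, and each was represented by its brightest single-gene probe set. The list falls into 11 kinases, cyclins and CDC25 phosphatases, 17 kinetochore and checkpoint genes (counted with UBE2C and PTTG1), 11 kinesins and spindle proteins, and 8 genes of the spindle midzone and cytokinesis (counted with the proliferation marker MKI67). Of the 47, 46 were measured well enough to be tested. INCENP, a chromosomal passenger subunit, lay between 2.18 and 2.24 on all 24 arrays, at the background floor, and was not tested.

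Gene expression was measured on Affymetrix arrays in 4 human cell lines from T-ALL, an acute leukaemia of T-cell precursors. The lines were TALL-1 and SUPT11, with P12-ICHIKAWA and RPMI-8402 beside them. Each line was cultured for 16 h with NVS-ZP7-3 or with its solvent alone, DMSO, at 0.5% in all cultures, which gave 8 groups of 3 arrays. NVS-ZP7 compounds are known as inhibitors of the zinc transporter ZIP7 (SLC39A7) of the endoplasmic reticulum. The labels give no target, dose or genotype, and do not say whether the 3 arrays of a group came from separate cultures. The p-values therefore reflect only how far these samples differ, and that difference may be technical. Expression values are on the authors' log2 scale, and a change is the mean with NVS-ZP7-3 minus the mean with DMSO. A gene is said to have risen or fallen where its limma p-value, adjusted by Benjamini-Hochberg over the 10661 genes tested, was below 0.05.

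Cells enter mitosis when CDK1, bound to cyclin A or cyclin B, is activated by CDC25 phosphatases, with PLK1 and the Aurora kinases acting beside it. Microtubules are held by kinetochores through the NDC80 complex (NDC80, NUF2, SPC24 and SPC25), which is anchored to the centromere by the MIS12 complex and KNL1, while BUB1, BUB1B, BUB3, MAD2L1 and TTK delay anaphase until all chromosomes are attached. Most of these genes are transcribed mainly in the later part of the cell cycle. Their promoters are known for a cell cycle homology region (CHR), bound by the DREAM and MuvB complexes, and for CCAAT boxes, bound by NF-Y. In a bulk culture, fewer cells in mitosis and less RNA in each such cell cannot be told apart.

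Pearson's r between arrays of the same group was 0.996 to 0.999 over genes, which are not independent replicates. Of 11 T-cell markers with a probe set, 9 to 11 were at log2 4 or more on every array of a group. CD2 lay at the floor in P12-ICHIKAWA, CD5 in TALL-1 with DMSO and DNTT in SUPT11 with DMSO. With NVS-ZP7-3 these 2 stayed low, CD5 at 2.38 to 2.61 in TALL-1 and DNTT at 2.35 to 2.95 in SUPT11. The 3' minus 5' difference of the ACTB control probe sets, a measure of RNA integrity, averaged 2.498 with NVS-ZP7-3 and 2.01 with DMSO in TALL-1, and 2.44 with NVS-ZP7-3 and 2.13 with DMSO in RPMI-8402. An exact permutation test gave p = 0.1 for each (two-sided), the smallest that 3 against 3 arrays can give. The mean difference in SUPT11 was 0.048, and in P12-ICHIKAWA 0.044. Transcripts that are bright in another line and otherwise near the floor were raised on 3 arrays. They were the second NVS-ZP7-3 array of TALL-1 (25 of 109 such genes above log2 4), the second NVS-ZP7-3 array of SUPT11 (11 of 68) and DMSO array 3 of RPMI-8402 (6 of 54).

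Promoters of 39 of the 47 genes were matched by symbol in a RefSeq table (GRCh38.p14), each with 250 bases before and 50 after the start of the gene. TTTGAA or TTCGAA, the letters of the CHR, occurred on either strand in 27 of the 39 (69.2%), against 16.6% of 27305 promoters in the table. CCAAT occurred on either strand in 29 (74.4%), against 35.7% of all promoters, and both motifs in 21 (53.8%), against 6.58%. The members were listed for their place in mitosis, a class already known for these motifs, so these shares describe the list. A match is a stretch of letters and not a known site of binding. The 250 bases before the start are shown for MKI67 and SPC25, which fell in 3 lines, for CCNB2, which passed the test in none, and for MIS12, which rose in all 4 lines. They lie at chr10:128126424-128126673 on the minus strand for MKI67, chr2:168890431-168890680 on the minus strand for SPC25, chr15:59104896-59105145 on the plus strand for CCNB2 and chr17:5486124-5486373 on the plus strand for MIS12. Each is written 5′ to 3′ along the gene, with CHR and CCAAT letters on either strand in capitals (a CCAAT on the opposite strand reads ATTGG).
MKI67: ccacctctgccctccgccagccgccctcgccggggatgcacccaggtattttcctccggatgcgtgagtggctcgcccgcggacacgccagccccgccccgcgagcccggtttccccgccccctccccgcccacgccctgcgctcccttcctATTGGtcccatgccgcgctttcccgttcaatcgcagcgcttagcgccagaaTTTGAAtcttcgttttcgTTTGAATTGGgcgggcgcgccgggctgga
SPC25: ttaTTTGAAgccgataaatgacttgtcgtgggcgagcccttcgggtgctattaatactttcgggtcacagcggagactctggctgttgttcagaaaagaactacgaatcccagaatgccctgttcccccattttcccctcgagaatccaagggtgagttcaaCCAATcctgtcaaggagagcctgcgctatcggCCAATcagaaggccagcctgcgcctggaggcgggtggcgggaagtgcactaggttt
CCNB2: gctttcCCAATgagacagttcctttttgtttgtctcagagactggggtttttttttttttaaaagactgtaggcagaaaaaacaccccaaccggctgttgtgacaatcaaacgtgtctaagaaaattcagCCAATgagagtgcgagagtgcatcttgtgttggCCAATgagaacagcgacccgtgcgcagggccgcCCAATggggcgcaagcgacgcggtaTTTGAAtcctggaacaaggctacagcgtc
MIS12: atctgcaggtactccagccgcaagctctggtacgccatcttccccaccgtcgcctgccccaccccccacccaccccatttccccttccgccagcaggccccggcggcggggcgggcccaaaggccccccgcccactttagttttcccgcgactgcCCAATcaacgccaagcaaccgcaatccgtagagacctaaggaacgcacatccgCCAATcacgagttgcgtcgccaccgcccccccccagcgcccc
MKI67 held 2 CHR motifs and 2 inverted CCAAT motifs, of which 1 of each overlap near the start of the gene. SPC25 held 1 CHR motif and 2 CCAAT motifs in the bases shown, and a further CHR motif that begins at position -3 and runs past the end shown. CCNB2 held 1 CHR motif and 4 CCAAT motifs, whereas MIS12 held 2 CCAAT motifs and no CHR motif in this window. In TALL-1 the 26 tested members with a CHR motif had a median change of -0.27 (22 fell), and the 12 without had a median of -0.18 (5 fell). For CCAAT the medians were -0.23 in 28 members with the motif (20 fell) and -0.26 in 10 without (7 fell). These medians describe the members and were not tested against each other.

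Mitotic transcripts fell with NVS-ZP7-3 most often in TALL-1, by small amounts. In that line, 31 of 46 members fell (67.4%, against 19.6% of all genes tested) and 1 rose (22.3% of all genes). In SUPT11 none fell (0.582% of all genes; also 0 at an unadjusted p below 0.05) and 1 rose (1.18%). In P12-ICHIKAWA 4 fell (8.7%, against 2.98%) and 1 rose (4.91%). In RPMI-8402 9 fell (19.6%, against 21.5%, so their share was near that of all genes) and 2 rose (15.1%). The members had a median change of -0.22 in TALL-1 and 0.02 in SUPT11. P12-ICHIKAWA had a median of -0.06 and RPMI-8402 one of -0.07, while the median of all genes tested was -0.02 in RPMI-8402 and 0.00 in the other lines. The TALL-1 median corresponds to 0.861 of the DMSO level, and 5 members fell by at least 0.5 on the log2 scale in TALL-1. In SUPT11, 37 of the 46 members lay within 0.1 of 0.

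**Figure D1:**
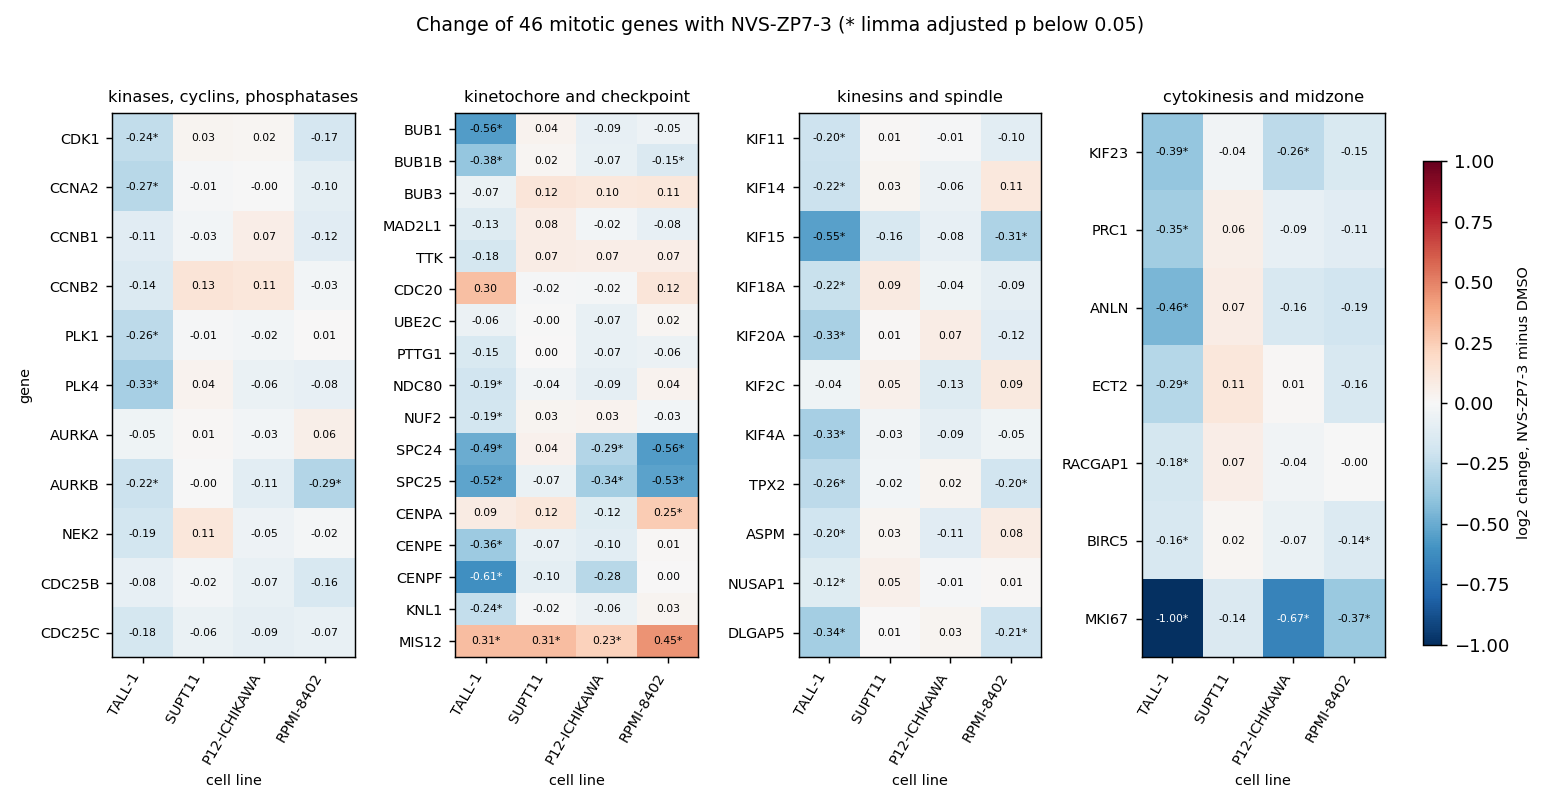
Change of the 46 tested mitotic genes (NVS-ZP7-3 minus DMSO, log2; rows are genes by subgroup, columns are lines, n = 3 arrays per group; a star marks a limma adjusted p below 0.05). The TALL-1 column is blue for 43 of the 46 genes, the SUPT11 column is near 0, and MIS12 is red in all 4 lines.

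**Figure D2:**
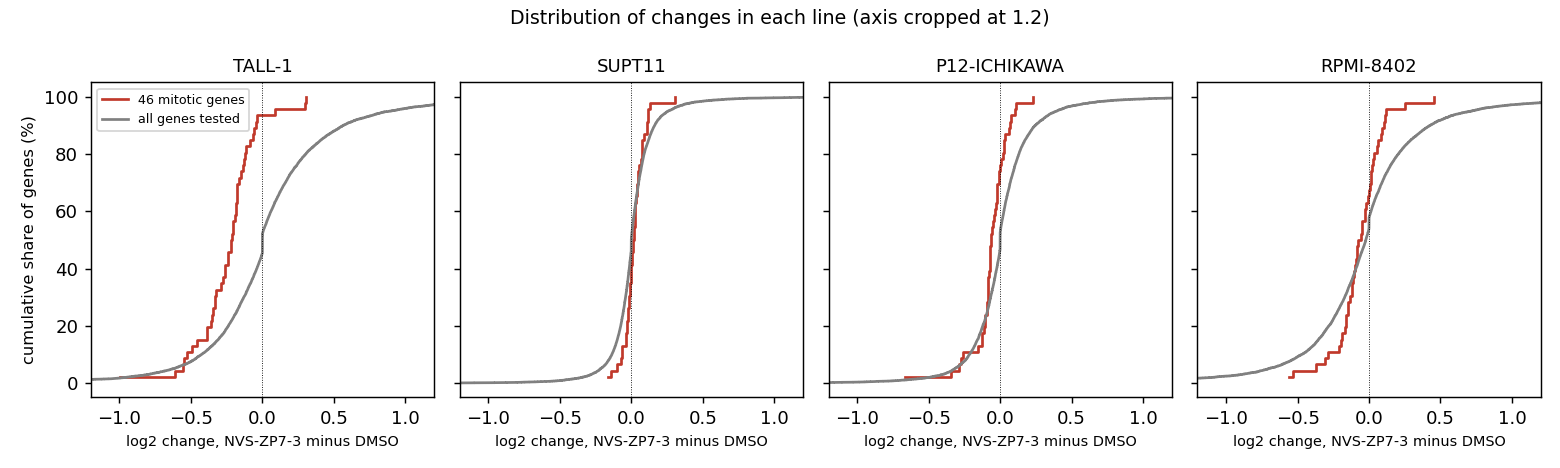
Cumulative share of genes (vertical axis, %) by log2 change (horizontal axis, cropped at 1.2) for the 46 mitotic genes and all 10661 genes tested, in each line. In TALL-1 43 of the 46 mitotic genes lie left of 0, with a median of -0.22, while in SUPT11 their median is 0.02.

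In TALL-1, 5 of the 11 kinases, cyclins and phosphatases fell, namely CDK1, CCNA2, PLK1, PLK4 and AURKB. CDK1, the kinase that drives entry into mitosis, was at 14.02, 14.09 and 14.07 with NVS-ZP7-3, against 14.21, 14.22 and 14.49 with DMSO. The groups did not overlap, and CDK1 fell by 0.24 ± 0.077 on the log2 scale (SE; limma adjusted p = 0.0165). CCNA2, cyclin A2, was at 13.65, 13.65 and 13.60 with NVS-ZP7-3, against 13.81, 13.83 and 14.08 with DMSO, a change of -0.27 ± 0.097 (adjusted p = 0.0291). PLK1, the Polo-like kinase of spindle assembly, was at 9.16, 9.01 and 9.22 with NVS-ZP7-3, against 9.55, 9.30 and 9.33 with DMSO, a change of -0.26 ± 0.096 (adjusted p = 0.0351). PLK4, which starts centriole duplication, and AURKB, the kinase of the chromosomal passenger complex, changed by -0.33 ± 0.064 and -0.22 ± 0.066. The calls on 3 of these genes were lost when 1 array of TALL-1 was left out. They were CDK1 without DMSO array 3 or NVS-ZP7-3 array 1 (range over all left-out arrays -0.29 to -0.15), CCNA2 without DMSO array 3 or any NVS-ZP7-3 array (-0.32 to -0.19), and PLK1 without DMSO array 1 or NVS-ZP7-3 array 1 or 2 (-0.31 to -0.18).

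The mitotic cyclins B and Aurora A did not pass the test in TALL-1. CCNB1, cyclin B1, was at 13.12, 13.20 and 13.15 with NVS-ZP7-3, against 13.23, 13.22 and 13.36 with DMSO. All treated arrays lay below all DMSO arrays, but the change of -0.11 ± 0.058 missed the threshold (adjusted p = 0.134). AURKA, which builds the spindle poles, was at 14.18, 14.25 and 14.23 with NVS-ZP7-3, against 14.25, 14.27 and 14.29 with DMSO, and these groups overlapped (-0.05 ± 0.043, adjusted p = 0.441). CCNB2, NEK2, CDC25B and CDC25C had changes between -0.19 and -0.08 and were not called.

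Of the 17 kinetochore and checkpoint genes, 9 fell in TALL-1. BUB1, a checkpoint kinase at the kinetochore, was at 12.77, 12.74 and 12.72 with NVS-ZP7-3, against 13.35, 13.20 and 13.35 with DMSO. Every treated array was below the DMSO arrays, and BUB1 fell by 0.56 ± 0.074 on the log2 scale, to 0.681 of the DMSO level (adjusted p = 6.93e-06). BUB1B, the checkpoint protein BubR1, changed by -0.38 ± 0.051. CENPF, a large protein of the outer kinetochore, was at 11.35, 11.47 and 11.42 with NVS-ZP7-3, against 12.12, 12.11 and 11.85 with DMSO (-0.61 ± 0.12, adjusted p = 0.000321). CENPE, the kinetochore motor, and KNL1, the scaffold for BUB1, changed by -0.36 ± 0.075 and -0.24 ± 0.050.

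All 4 genes of the NDC80 complex fell in TALL-1, by unequal amounts. NDC80 was at 12.61, 12.70 and 12.66 with NVS-ZP7-3, against 12.90, 12.78 and 12.86 with DMSO (-0.19 ± 0.064, adjusted p = 0.0194), and the call was lost without DMSO array 1 or 3 or NVS-ZP7-3 array 1 (-0.23 to -0.17). NUF2, its partner, changed by -0.19 ± 0.067. SPC25 was at 11.99, 12.04 and 12.09 with NVS-ZP7-3, against 12.47, 12.55 and 12.67 with DMSO, a change of -0.52 ± 0.052 (adjusted p = 1.85e-07). SPC24, which pairs with SPC25, was at 10.76, 10.86 and 10.91 with NVS-ZP7-3, against 11.26, 11.42 and 11.34 with DMSO (-0.49 ± 0.087, adjusted p = 0.000148). The call on SPC24 rests on its brighter probe set, because its other, dim probe set (mean level 4.86) went the opposite way, by 0.82 ± 0.25 in TALL-1 (adjusted p = 0.0129 in a fit over 20461 probe sets).

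Other checkpoint genes and the anaphase genes of the list did not fall by the test. CDC20, the activator of the anaphase-promoting complex, was at 12.12, 12.16 and 12.18 with NVS-ZP7-3, against 12.12, 11.67 and 11.78 with DMSO. The change was 0.30 ± 0.12 and not called (adjusted p = 0.0597). It was called without the first DMSO array of TALL-1, at 0.43, or without any of 4 arrays of P12-ICHIKAWA. With the ACTB 3' minus 5' difference as a covariate the CDC20 change was 0.03 and not called. With the level of the globin HBB as a covariate it was 0.32 and called. MAD2L1, BUB3, TTK, UBE2C (an E2 enzyme of the anaphase-promoting complex) and PTTG1 (securin) had changes between -0.18 and -0.06, and CENPA, the centromeric histone, was at 0.09 ± 0.074. The remaining member of the group, MIS12, rose and is described with the other lines.

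Kinesins and spindle proteins were lower almost throughout in TALL-1, with 10 of 11 fallen. KIF11, the motor that separates the spindle poles, was at 14.36, 14.40 and 14.39 with NVS-ZP7-3, against 14.50, 14.64 and 14.62 with DMSO (-0.20 ± 0.047, adjusted p = 0.0018). KIF20A, a motor of the central spindle, was at 10.80, 10.89 and 10.85 with NVS-ZP7-3, against 11.16, 11.11 and 11.25 with DMSO (-0.33 ± 0.086, adjusted p = 0.00471). Neither gene overlapped between the groups. KIF15, which can share the work of KIF11, had the largest fall of the group, -0.55 ± 0.083. DLGAP5, KIF4A, TPX2, KIF18A, KIF14, ASPM and NUSAP1 fell by 0.12 to 0.34 on the log2 scale, while KIF2C, a microtubule depolymerase, was at -0.04 and not called.

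All 7 tested genes of the midzone and cytokinesis fell in TALL-1. MKI67, which coats mitotic chromosomes and is the standard proliferation marker Ki-67, was at 11.42, 11.56 and 11.29 with NVS-ZP7-3, against 12.44, 12.64 and 12.17 with DMSO. By the brightest probe sets this was the largest change among the 46 members in TALL-1, -0.996 ± 0.127, or 0.501 of the DMSO level (adjusted p = 3.96e-06). The second-brightest probe set of MKI67 gave a smaller fall, -0.56. BIRC5, survivin, was at 14.44, 14.47 and 14.60 with NVS-ZP7-3, against 14.67, 14.66 and 14.67 with DMSO (-0.16 ± 0.046, adjusted p = 0.00699). ANLN, a scaffold of the cleavage furrow, KIF23 and RACGAP1, which form centralspindlin, PRC1, which bundles midzone microtubules, and ECT2, the activator of RhoA, fell by 0.18 to 0.46 on the log2 scale.

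In 35 of the 46 members all treated arrays of TALL-1 lay below all DMSO arrays, against 23.3% of all genes. The ACTB 3' minus 5' difference was higher on all treated arrays of this line (2.40 to 2.62 with NVS-ZP7-3, against 1.96 to 2.07 with DMSO), whereas the same difference for GAPDH averaged 0.250 with NVS-ZP7-3 and 0.248 with DMSO (exact permutation test, two-sided p = 0.9). With the ACTB 3' minus 5' difference as a covariate, 18 members fell (14.9% of all genes), namely 1 of the kinases and cyclins, 5 of the kinetochore genes, 7 of the kinesins and spindle proteins and 5 of the midzone genes, with a median of -0.28. CDK1 (-0.32), CCNA2 (-0.28), PLK1 (-0.28) and NDC80 (-0.23) were no longer called, although their changes were no smaller than without the covariate. KIF11 (-0.16), BIRC5 (-0.098) and SPC24 (-0.25) also lost their calls, with smaller changes than without it. Without the 3 arrays that carry foreign transcripts, 23 members fell (17.1% of all genes), and the subgroups held 2, 8, 8 and 5 of them. The summed level of the T-cell markers was also lower in TALL-1, at log2 16.05 to 16.18 with NVS-ZP7-3 against 16.54 to 16.62 with DMSO. This sum was lower with NVS-ZP7-3, without overlap, in the other lines too. It was at 16.07 to 16.09 against 16.10 to 16.15 in SUPT11. In P12-ICHIKAWA it was at 16.21 to 16.24 against 16.25 to 16.29, and in RPMI-8402 at 16.54 to 16.58 against 16.64 to 16.68. The part of these measures in the result was not tested beyond these fits.

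**Figure D3:**
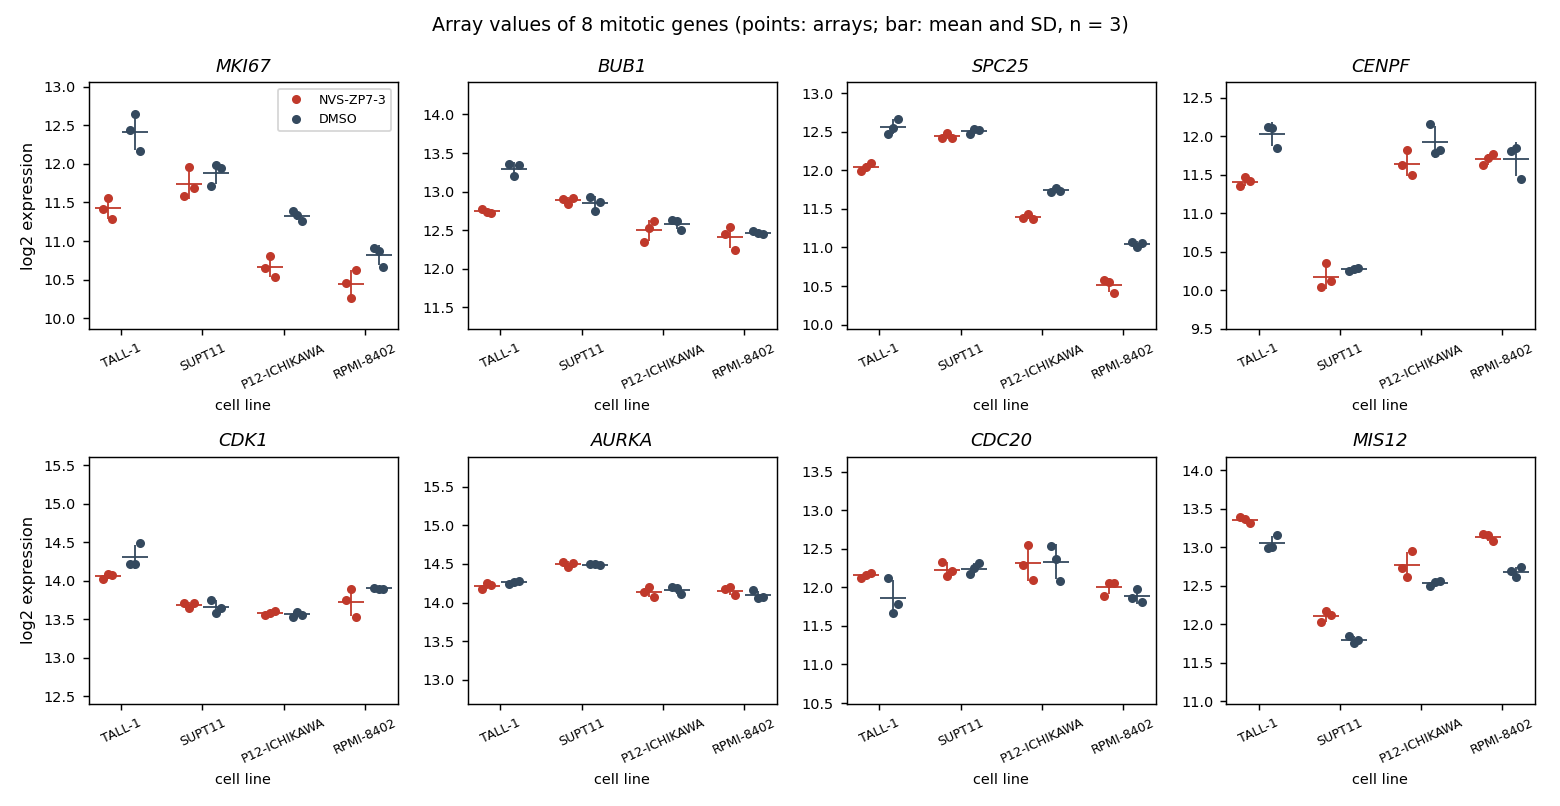
Log2 expression on every array (points) with the mean and SD (bars, n = 3) for 8 mitotic genes in 4 lines, NVS-ZP7-3 left of DMSO in each line (each panel has its own log2 range). MKI67, BUB1, SPC25 and CENPF are separated in TALL-1, AURKA is not, and MIS12 is higher with NVS-ZP7-3 in all 4 lines.

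In SUPT11 the genes with the largest falls in TALL-1 were not called. MKI67 was at 11.58, 11.96 and 11.68 with NVS-ZP7-3, against 11.71, 11.98 and 11.95 with DMSO (-0.14 ± 0.13, adjusted p = 0.997). BUB1 was at 12.90, 12.84 and 12.92 with NVS-ZP7-3, against 12.93, 12.75 and 12.87 with DMSO, and CDK1 was at 13.71, 13.65 and 13.71 against 13.76, 13.58 and 13.65. The treated and DMSO arrays overlapped for all of these genes. All 3 treated arrays lay below all 3 DMSO arrays for 2 members (7.77% of all genes) and above them for 5 (8.79%).

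In P12-ICHIKAWA the 4 genes that fell were MKI67, SPC25, SPC24 and KIF23. MKI67 was at 10.66, 10.80 and 10.54 with NVS-ZP7-3, against 11.39, 11.34 and 11.27 with DMSO (-0.67 ± 0.13, adjusted p = 0.00242). SPC25 was at 11.39, 11.44 and 11.37 with NVS-ZP7-3, against 11.71, 11.77 and 11.73 with DMSO (-0.34 ± 0.052, adjusted p = 0.00029). Both genes were separated on all arrays, as was KIF23 (-0.26 ± 0.066, adjusted p = 0.0188). SPC24 was at 9.69, 9.50 and 9.81 with NVS-ZP7-3, against 9.78, 10.11 and 9.98 with DMSO, and these groups overlapped (-0.29 ± 0.087, adjusted p = 0.0487). The SPC24 call was lost when any of 19 of the 24 arrays was left out, and its dim probe set was at 0.65 ± 0.25. Apart from the centralspindlin motor KIF23, no kinase, cyclin or kinesin of the list fell in P12-ICHIKAWA by its brightest probe set. By its second-brightest probe set CCNA2 was at -0.30 and called. CDK1 was at 13.55, 13.58 and 13.60 with NVS-ZP7-3 against 13.53, 13.60 and 13.56 with DMSO.

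Transcripts of other blood cells moved with the treatment in P12-ICHIKAWA. HBB, a globin, was at 7.96 to 11.45 with NVS-ZP7-3 against 2.18 to 2.29 with DMSO, while HBD and ALAS2, the other erythroid markers with a probe set, stayed at the floor. The summed level of these 3 markers was 8.01 to 11.45 with NVS-ZP7-3 against 3.77 to 3.80 with DMSO. Of 7 myeloid markers, LYZ was at 5.50 to 8.01 with NVS-ZP7-3 against 2.28 to 2.99 with DMSO, and the other 6 stayed at the floor. With the HBB level as a covariate 2 members fell in this line (0.957% of all genes), and 2 fell without the second DMSO array (share of all genes not given here). The part of these transcripts in the result was not tested beyond this fit. Such transcripts were not confined to P12-ICHIKAWA. HBB was at 7.96 on NVS-ZP7-3 array 1 of TALL-1 and at 10.61 on NVS-ZP7-3 array 2 of SUPT11. In RPMI-8402 HBB was at 2.32 to 14.65 with DMSO and at 8.63 to 12.99 with NVS-ZP7-3. DMSO array 3 of RPMI-8402 also held LYZ at 12.54, S100A8 at 9.61, HBD at 8.46 and ALAS2 at 6.41.

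In RPMI-8402 the 9 members that fell were SPC24, SPC25, MKI67, KIF15, AURKB, DLGAP5, TPX2, BUB1B and BIRC5. SPC25 was at 10.58, 10.55 and 10.41 with NVS-ZP7-3, against 11.07, 11.00 and 11.06 with DMSO (-0.53 ± 0.052, adjusted p = 2.25e-07). SPC24 was at 10.33, 10.23 and 10.12 with NVS-ZP7-3, against 10.78, 10.75 and 10.83 with DMSO (-0.56 ± 0.087, adjusted p = 5.79e-05). Both were separated on all arrays, but the dim probe set of SPC24 was at 1.01 ± 0.25 (adjusted p = 0.0036 over probe sets). MKI67 was at 10.46, 10.26 and 10.62 with NVS-ZP7-3, against 10.91, 10.87 and 10.67 with DMSO (-0.37 ± 0.13, adjusted p = 0.0289). AURKB changed by -0.29 ± 0.066 (adjusted p = 0.00195) and BIRC5 by -0.14 ± 0.046 (adjusted p = 0.0259).

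By their brightest probe sets, the entry kinase and its partners did not pass the test in RPMI-8402. By the second-brightest probe sets CCNA2 was at -0.44 and called, while CCNB1 was at 0.0018 and not called. The further probe sets of CDK1 are described below. CDK1 was at 13.76, 13.90 and 13.53 with NVS-ZP7-3, against 13.91, 13.90 and 13.89 with DMSO (-0.17 ± 0.077, adjusted p = 0.0951). CENPA, the histone that marks the centromere, rose in this line. It was at 8.93, 8.96 and 8.99 with NVS-ZP7-3, against 8.70, 8.79 and 8.63 with DMSO (0.25 ± 0.074, adjusted p = 0.0116), and the call was lost without DMSO array 3, at 0.21, and with the ACTB covariate, at 0.25. With that covariate 6 members fell in RPMI-8402 (17.8% of all genes), and 5 fell without its first DMSO array (share of all genes not given here). MKI67 lost its call without DMSO array 1 or 2 or NVS-ZP7-3 array 1 or 2 of the line (-0.46 to -0.28), and BIRC5 without DMSO array 2 or 3 or NVS-ZP7-3 array 1 or 2 (-0.15 to -0.12). With that covariate neither was called, and MKI67 was at -0.37, as without it, while BIRC5 was at -0.095. The GAPDH 3' minus 5' difference in this line averaged 0.182 with NVS-ZP7-3 and 0.140 with DMSO (exact permutation test, two-sided p = 0.4).

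MIS12, a subunit of the complex that joins the outer kinetochore to the centromere, was the only member called in all 4 lines, and it rose in each. In TALL-1 it was at 13.39, 13.36 and 13.32 with NVS-ZP7-3, against 12.99, 13.00 and 13.16 with DMSO (0.31 ± 0.070, adjusted p = 0.00147). In RPMI-8402 it was at 13.17, 13.16 and 13.07 with NVS-ZP7-3, against 12.69, 12.62 and 12.74 with DMSO (0.45 ± 0.070, adjusted p = 4.84e-05). No array of one group overlapped with the other in either line, and the 2 calls held in every leave-one-out fit. In SUPT11 MIS12 was at 12.03, 12.17 and 12.12 with NVS-ZP7-3, against 11.85, 11.75 and 11.80 with DMSO (0.31 ± 0.070, adjusted p = 0.0236). In P12-ICHIKAWA it was at 12.74, 12.62 and 12.96 with NVS-ZP7-3, against 12.50, 12.55 and 12.56 with DMSO (0.23 ± 0.070, adjusted p = 0.0482). The SUPT11 call was lost without array 2 or 3 of either group of that line, at 0.28 to 0.35, and the P12-ICHIKAWA call without any of 21 of the 24 arrays, at 0.14 to 0.31. With the HBB covariate the SUPT11 and P12-ICHIKAWA calls were also lost, at 0.28 and 0.18. Averaged over the lines the rise was 0.33 ± 0.035 (adjusted p = 4.65e-07), and its size did not pass the test for a difference among lines (adjusted p = 0.3).

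On average over the lines 19 members fell (41.3%, against 24.5% of all genes) and MIS12 rose (22.4% of all genes). By the brightest probe sets the largest average falls were MKI67 at -0.54 ± 0.064, SPC25 at -0.37 ± 0.026 and SPC24 at -0.33 ± 0.044. By these probe sets MKI67, SPC24 and SPC25 fell in 3 lines, and 13 members were called in none. By its second-brightest probe set MKI67 was called in TALL-1 only and was at 0.20 in SUPT11, while the dim probe set of SPC24 went the opposite way. The 9 genes that fell in RPMI-8402 and the 4 in P12-ICHIKAWA also fell in TALL-1, where they made up 29.0% and 12.9% of those that fell. As 67.4% of the members fell in TALL-1, a large overlap says little about these genes. Matching values over all genes, for the overlap and for the number of lines per gene, are not given here. Across the 46 members, the change in TALL-1 correlated with that in P12-ICHIKAWA (Pearson r = 0.705) and in RPMI-8402 (0.700), and r for the other pairs of lines was between 0.523 and 0.583. Spearman's rho over the 6 pairs was between 0.198 and 0.615, and r over all genes between 0.157 and 0.404. These values describe genes measured on the same arrays.

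The change itself was compared among lines with an interaction F test. It was called for 20 of 46 members (43.5%, against 35.8% of all genes), so the share was not far from that of all genes. The direction was uneven. The change in TALL-1 was more negative than the mean of the other 3 lines for 20 members (11.8% of all genes) and more positive for none (16.9%). MKI67 differed by -0.60 ± 0.15 (adjusted p = 0.00451), BUB1 by -0.52 ± 0.086 (adjusted p = 0.000154) and CENPF by -0.49 ± 0.14 (adjusted p = 0.0109). In SUPT11 the change was more positive than in the other lines for 8 members (7.17%), with SPC25 at 0.40 ± 0.060 and SPC24 at 0.49 ± 0.10, and more negative for none (8.08%). In P12-ICHIKAWA no member differed in either direction (4.73% of all genes more negative and 3.65% more positive; 1 and 5 members at an unadjusted p below 0.05). In RPMI-8402 SPC24 and SPC25 were more negative (11.4%) and KIF14 more positive (7.08%). For SPC24 both differences rest on its brighter probe set. By the dim one its change was smallest in SUPT11 (0.35) and largest in RPMI-8402 (1.01), against 0.82 in TALL-1 and 0.65 in P12-ICHIKAWA. The counts of members that differed among lines rest on few arrays. Without the first NVS-ZP7-3 array of TALL-1 the interaction was called for 13 members, and without the 3 arrays with foreign transcripts the counts were 13 for the interaction, 13 for TALL-1, 2 for SUPT11 and 0 for RPMI-8402. For SUPT11 the count was 5 without any 1 of 9 arrays, which were 5 of its own 6 (all but DMSO array 1), DMSO array 3 and NVS-ZP7-3 array 2 of TALL-1, and DMSO arrays 1 and 2 of RPMI-8402. For RPMI-8402 the count was 1 without its DMSO array 2 or 3 or NVS-ZP7-3 array 2 or 3. Shares of all genes in these fits are not given here, so the lower counts do not describe the members alone.

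Genes with several probe sets were also compared by single probe sets within the same arrays. The 46 tested members and INCENP had 94 probe sets, and 24 had more than 1. In TALL-1 the 16 fallen members with further probe sets had 28 of them. Of these, 27 changed in the same direction, 24 with an adjusted p below 0.05, and 1, that of SPC24, changed in the opposite direction. The 16 members were taken for having fallen on these same arrays, so this agreement is not independent support. The share over all genes is not given here. Dimmer probe sets mostly gave more negative changes than the brightest one in every line, also in SUPT11, where no member fell. Of 42 further probe sets, 34 were more negative in TALL-1, 32 in RPMI-8402, 30 in P12-ICHIKAWA and 28 in SUPT11. The median difference from the brightest was -0.15 in TALL-1 and -0.19 in RPMI-8402, against -0.07 in P12-ICHIKAWA and -0.06 in SUPT11. Matching values over all genes are not given here, so this shift does not describe the members alone. Over 23 members the median change in TALL-1 was -0.39 by the second-brightest and -0.22 by the brightest. CDK1 changed by -0.24 in TALL-1 by its brightest probe set and by -0.43, -0.47 and -0.52 by the others. In RPMI-8402 the brightest CDK1 probe set gave -0.17 and was not called, while the others gave -0.34, -0.40 and -0.40 and were called. Using the second-brightest probe set where there is one, 29 members fell in TALL-1 (1856 of all 10662 genes) and 13 in RPMI-8402 (21.9% of all genes). By the brightest 31 and 9 fell. MKI67 fell less by its second-brightest probe set. It was at -0.56 in TALL-1, still called. In P12-ICHIKAWA it was at -0.34, in RPMI-8402 at -0.03 and in SUPT11 at 0.20, not called in any of these lines. AURKA had changes between -0.05 and -0.02 in TALL-1 and between 0.05 and 0.06 in RPMI-8402 over its 3 probe sets.

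**Figure D4:**
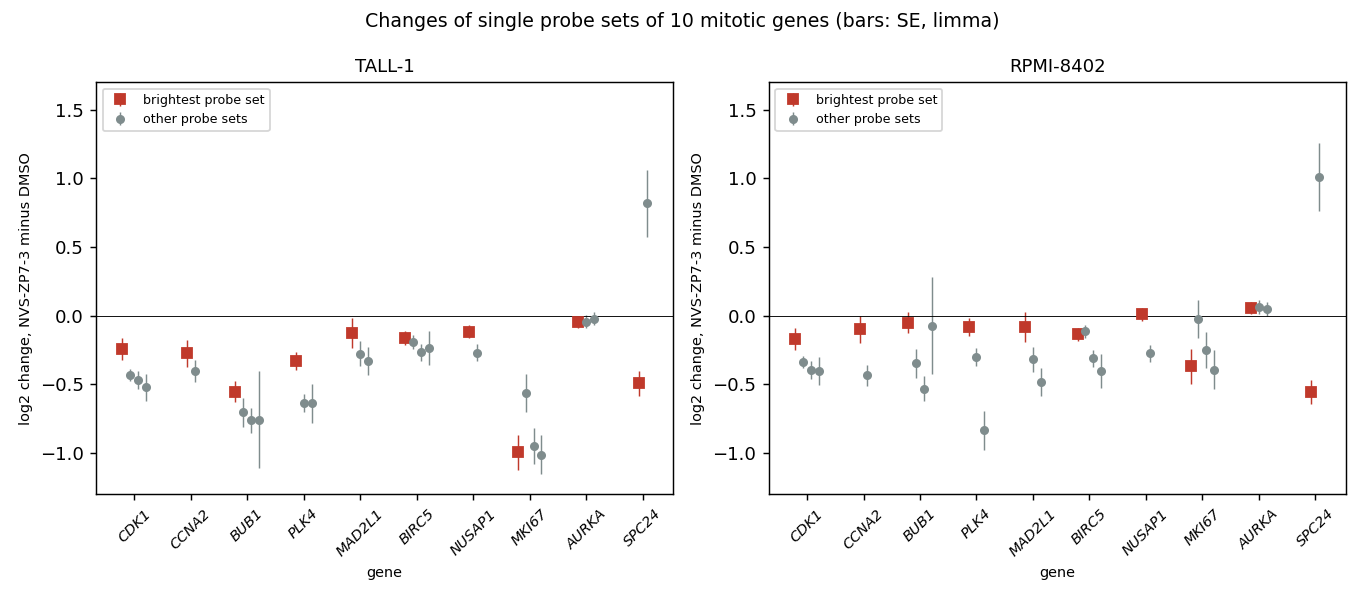
Log2 change (vertical axis, with SE) of each probe set of 10 mitotic genes in TALL-1 and RPMI-8402, the brightest as a red square and the others in grey. The dimmer probe sets of CDK1, PLK4 and MAD2L1 lie below the brightest, and the dim probe set of SPC24 lies on the other side of 0.

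The lines also differed in their mitotic transcripts before treatment. With DMSO all 46 members differed among the lines by an F test, as did 96.3% of all genes, so the count says little about these genes. The median range among the 4 DMSO means was 0.73 for the members and 1.26 for all genes tested. TALL-1 and SUPT11 were highest for 20 members each, and P12-ICHIKAWA was lowest for 23. Matching shares of all genes are not given here, so these counts do not describe the members alone. TTK, the checkpoint kinase MPS1, was at 9.89 ± 0.23 in RPMI-8402 (SD, n = 3) against 11.55 to 11.93 in the other lines. CENPF was at 10.27 ± 0.023 and AURKB at 11.19 ± 0.125 in SUPT11, below all other lines. MKI67 was highest in TALL-1 (12.42 ± 0.237), followed by SUPT11 (11.88 ± 0.145), then P12-ICHIKAWA (11.33 ± 0.0626), and was lowest in RPMI-8402 (10.82 ± 0.131).

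**Figure D5:**
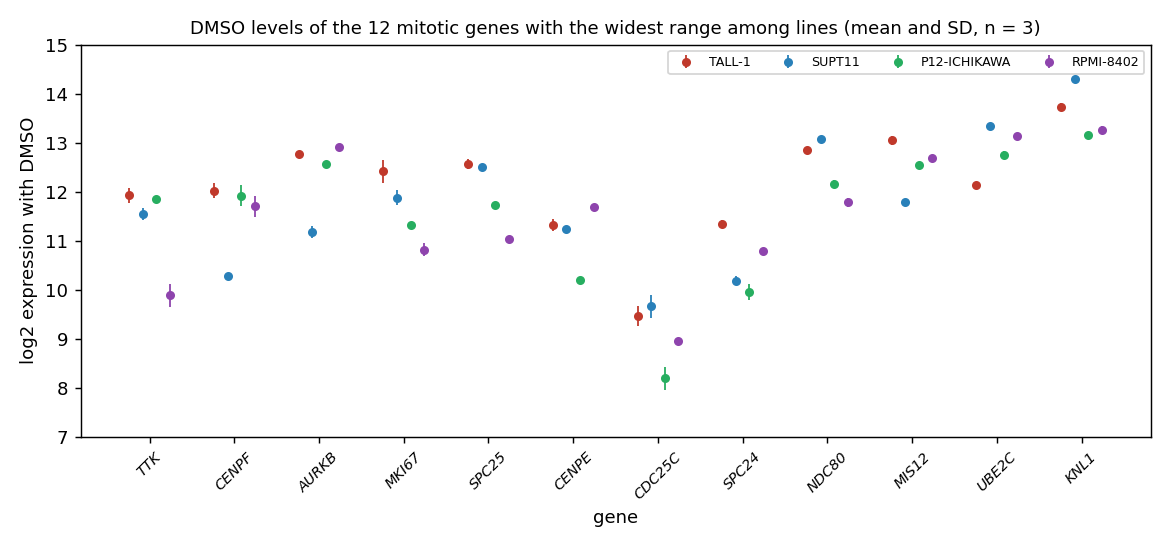
Log2 expression with DMSO (mean and SD, n = 3) of the 12 mitotic genes with the widest range among the 4 lines. TTK is low in RPMI-8402, and CENPF and AURKB are low in SUPT11.

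Other genes of the mitotic programme also fell in TALL-1. They were listed with earlier results of these data known, so their falls are not independent support. A list of 97 regulators, anaphase-promoting complex subunits, centromere, condensin and further spindle genes had 93 tested. In TALL-1 55 of them fell (59.1%, against 19.6% of all genes) and 4 rose (4.30%, against 22.3%). In SUPT11 none was called in either direction (0 fell and 1 rose at an unadjusted p below 0.05), where 0.582% of all genes fell and 1.18% rose. In P12-ICHIKAWA 17 fell (18.3%, against 2.98% of all genes) and none rose (2 rose at an unadjusted p below 0.05), where 4.91% of all genes rose. In RPMI-8402 31 fell (33.3%, against 21.5% of all genes) and 3 rose (3.23%, against 15.1%). In TALL-1 they included 16 of 23 centromere and cohesion genes, 6 of 8 condensin and topoisomerase genes and 8 of 13 regulators, but 2 of 12 subunits and regulators of the anaphase-promoting complex, of which 2 others rose.

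Of the 93 other mitotic genes tested, the transcription factors MYBL2 and E2F1 fell most in TALL-1. Their part in the changes of the members was not tested. MYBL2, B-Myb, was at 6.75, 7.53 and 7.32 with NVS-ZP7-3 in TALL-1, against 8.61, 8.28 and 8.51 with DMSO (-1.27 ± 0.16, adjusted p = 3.33e-06). It also fell in P12-ICHIKAWA (-0.58 ± 0.16) and RPMI-8402 (-0.63 ± 0.16), and was at -0.10 ± 0.16 in SUPT11. E2F1 fell by 0.87 ± 0.086 in TALL-1 and by 0.41 ± 0.086 in P12-ICHIKAWA on the log2 scale, and was at -0.22 ± 0.086 in RPMI-8402, not called. E2F8, a repressor among the E2F factors, fell in 3 lines, by 0.68, 0.61 and 0.67 in TALL-1, P12-ICHIKAWA and RPMI-8402. FOXM1, the forkhead factor of late cell-cycle genes, had changes of -0.32 ± 0.14, -0.42 ± 0.14 and -0.23 ± 0.14 in the same 3 lines and passed the test in none. The P12-ICHIKAWA calls were lost without 1 of 4 arrays of that line for MYBL2 (-0.69 to -0.46) and 1 of 2 for E2F8 (-0.77 to -0.42). TOP2A, topoisomerase II alpha, fell by 0.17 ± 0.066 in TALL-1, a call lost without any 1 of 7 arrays (-0.19 to -0.15). BORA, the activator of Aurora A, rose by 0.24 ± 0.076 in TALL-1 and by 0.28 ± 0.076 in RPMI-8402, ANAPC10 rose by 0.26 ± 0.060 in TALL-1, and HMMR rose by 0.20 ± 0.060 in RPMI-8402. BORA lost its calls without NVS-ZP7-3 array 2 of TALL-1 (lowest 0.20) and without DMSO array 3 of RPMI-8402 (lowest 0.18), and HMMR without DMSO or NVS-ZP7-3 array 2 of RPMI-8402 (lowest 0.16).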

How the data were processed

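RNA of 4 T-ALL lines with NVS-ZP7-3 or DMSO was measured on 24 Affymetrix arrays (8 groups of 3, from the titles). The authors deposited log2 expression values of 54675 probe sets, made with GCRMA and limma per the submitters' processing notes, with versions not given in the sources used here. Undetected probe sets lie at a floor of 2.18, and arrays have no count behind their values, so their number limits the precision.

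Gene names came from the array platform's annotation, which can be old, and were brought up to date with RefSeq. Each gene was represented by its brightest single-gene probe set, by the mean of the 24 arrays. A gene was tested where 3 or more arrays reached log2 4 (10661 of 19775 genes), with limma 3.58.1 in R 4.3.3, using 8 group means over all arrays (16 residual and 18.0 total degrees of freedom), two-sided, with Benjamini-Hochberg adjustment. The single probe sets were fitted alike. The steps were tested on simulated data.

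The members and lists were chosen with earlier results of these data known. Array values are given for 12 key members, the 2 largest called falls and rises per line and the 4 widest ranges among lines. KIF14, KIF15, AURKB and other members are named from the full list. Alternatives were other filters, thresholds and scalings, the mean of all probe sets, an intensity trend, a block for the replicate number, single lines, covariates and leaving out arrays. Leaving out the arrays with foreign transcripts and using the second-brightest probe set were chosen after seeing the data.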

Additional observations from a re-analysis of the deposited data

Results flagged for a closer look

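The size of the change with NVS-ZP7-3 differed among the 4 lines for 20 members and for 5 other mitotic genes named in the text, by the limma interaction F test over all genes (adjusted p below 0.05). The value given here is the range of the log2 change among the lines, the largest minus the smallest. It was 0.86 for MKI67, 0.62 for CENPF, 0.60 for SPC24, 0.59 for BUB1 and 0.53 for ANLN. It was 0.46 for SPC25 and for KIF15, 0.41 for PRC1 and for BUB1B, 0.38 for CENPA, and 0.37 for CENPE, DLGAP5 and PLK4. The range was 0.35 for KIF23, 0.32 for KIF14, 0.31 for KIF18A, 0.30 for KIF4A, 0.28 for TPX2, 0.26 for KNL1 and 0.22 for KIF11. Among the other mitotic genes it was 1.17 for MYBL2, 0.89 for E2F1, 0.82 for E2F8, 0.35 for HMMR and 0.34 for BORA.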

How the results depend on the processing

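Values below are counts of members called (or median changes, log2) where a setting moved them, beside 93 other mitotic genes where these are named. The counts are given without the share of all genes, so a moved count does not describe the members alone. With adjusted p below 0.01, members higher were 0 (SUPT11), 0 (P12-ICHIKAWA) and 1 (RPMI-8402), and members lower 2 (P12-ICHIKAWA) and 4 (RPMI-8402). The interaction was then called for 7, and the difference from the other lines for 10 (TALL-1), 2 (SUPT11) and 0 (RPMI-8402). Of the other mitotic genes 1 was higher in TALL-1, 9 lower in P12-ICHIKAWA and 1 higher in RPMI-8402. With no filter on low values 0 were higher in P12-ICHIKAWA. With the mean of all probe sets the TALL-1 median was -0.26, 2 were lower in P12-ICHIKAWA and 14 in RPMI-8402 (1 other mitotic gene higher), 2 were higher over the lines and 1 differed in P12-ICHIKAWA. Quantile normalization gave 1 differing in P12-ICHIKAWA. Median centring gave a TALL-1 median of -0.27, 0 higher in SUPT11 and P12-ICHIKAWA, and 2 differing in P12-ICHIKAWA. An intensity trend gave 2 higher in TALL-1. Each line alone gave 0 higher in SUPT11 and P12-ICHIKAWA and 2 lower in P12-ICHIKAWA, with other mitotic genes at 2 higher in TALL-1, 3 lower in P12-ICHIKAWA and 0 higher in RPMI-8402. The ACTB covariate gave 18 lower in TALL-1 (median -0.28), 0 higher in P12-ICHIKAWA and 1 higher in RPMI-8402, with 1 other mitotic gene higher in TALL-1 and 1 in RPMI-8402. The HBB covariate gave 2 higher in TALL-1, 0 higher in SUPT11 and P12-ICHIKAWA, 2 lower in P12-ICHIKAWA (5 other mitotic genes lower) and 2 higher over the lines. Without the arrays with foreign transcripts 0 were higher in SUPT11 and P12-ICHIKAWA and 2 over the lines, the interaction was called for 13, and the difference from the other lines for 13 members (TALL-1), 2 (SUPT11), 1 (P12-ICHIKAWA) or 0 (RPMI-8402), with 2 other mitotic genes higher in TALL-1 and 1 in RPMI-8402. The second-brightest probe set gave 2 higher in TALL-1 (median -0.27), 2 lower and 0 higher in P12-ICHIKAWA, 2 higher over the lines, 1 differing in RPMI-8402 and 1 other mitotic gene higher there. SPC24 reversed with the mean of all probe sets, to 0.16 (TALL-1), 0.18 (P12-ICHIKAWA) and 0.23 (RPMI-8402), and with the second-brightest, to 0.82, 0.65 and 1.01. The cause was not tested.

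Arrays with the same number in both groups of a line did not deviate together throughout (r between -0.14 and 0.42), so the numbers were not taken as pairs. The replicate block gave 2 higher in TALL-1, 0 higher in SUPT11 and P12-ICHIKAWA, 9 other mitotic genes lower in P12-ICHIKAWA, an interaction for 13, and 5 differing in SUPT11 and 1 in RPMI-8402.

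Leaving out 1 array at a time gave, in TALL-1, 24 to 31 lower, 1 to 2 higher and a median between -0.26 and -0.19, with 39 to 59 other mitotic genes lower and 2 to 4 higher. It gave 0 lower and 0 to 1 higher in SUPT11 (median 0.0054 to 0.028). In P12-ICHIKAWA it gave 2 to 4 lower, 0 to 1 higher and 10 to 18 other mitotic genes lower (median -0.082 to -0.035). In RPMI-8402 it gave 5 to 10 lower, 1 to 2 higher, and 24 to 33 other mitotic genes lower and 1 to 4 higher (median -0.10 to -0.012). Over the lines 19 to 23 were lower and 1 to 2 higher, and the interaction was called for 13 to 22. The difference from the other lines was called for 15 to 26 members (TALL-1), 5 to 9 (SUPT11), 0 to 1 (P12-ICHIKAWA) or 1 to 4 (RPMI-8402). Of 1300 results for single genes under the other settings, 1182 kept direction and side of the threshold, 85 lost their call, 27 gained one and 6 reversed. Of 2400 with an array left out, 2300 kept both, 82 lost their call, 18 gained one and 0 reversed.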
